A study of Mus musculus with 6 samples.

Results

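This account covers 7 genes of red cell transcription control in a mouse blood precursor line: Gata1, its cofactor gene Zfpm1, Klf1, Nfe2, Hemgn, and the globin repressor genes Zbtb7a and Bcl11a. The genes were chosen by name and by peaks of these same lists that were already known, so the presence of a peak at them is a description and carries no test. Every region whose nearest gene, as the authors' annotation names it, was a member was taken: 64 regions in all. They are 4 of 885 STAT3 peaks, 2 of 3016 SOX4 peaks, 1 of 2525 GABPa peaks and 57 of 143365 distinct open intervals. The members are 7 of the 20691 genes that at least 1 of the 4 lists names.

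The cells were EML, a suspension line of strain B6D2F1 mice known to depend on stem cell factor and to have been made with a dominant-negative retinoic acid receptor. They were sorted by beads and flow cytometry into cells without lineage markers that carried CD34 (lin-CD34+) and cells without lineage markers or CD34 (lin-CD34-). STAT3 and SOX4 were immunoprecipitated from lin-CD34+ cells, GABPa from lin-CD34- cells, and open chromatin was mapped by transposase (ATAC-seq) in lin-CD34+ cells. Each of these was 1 library, so no value has an error between replicates. The factor and the cell population cannot be told apart where GABPa is set beside the others, and open chromatin of lin-CD34- cells was not analysed here. No RNA or protein values were used here, so neither the level of the 7 genes nor the identity of the sorted cells could be checked against markers.

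GATA1 is the zinc finger factor that red cell and platelet precursors need in order to mature, and FOG1, the product of Zfpm1, binds to it and recruits repressors and activators to its sites. KLF1 activates adult β-globin and many other red cell genes through CACCC boxes. NFE2 pairs with a small MAF protein on the β-globin control region and in platelet genes, and hemogen, the product of Hemgn, is made in blood precursors downstream of GATA1. BCL11A and ZBTB7A, also called LRF, silence the γ-globin genes in human adult red cells, and mouse ZBTB7A is also needed for late red cell survival. STAT3 is activated by cytokine receptors, SOX4 is an HMG-box factor of progenitors, and GABPa is an ETS factor.

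STAT3 had a peak at 4 of the 7 genes (Zbtb7a, Nfe2, Zfpm1 and Hemgn), SOX4 at 2 (Zbtb7a and Bcl11a) and GABPa at 1 (Zbtb7a). Over all 20691 genes STAT3 peaks were named to 4.12%, SOX4 peaks to 12.5% and GABPa peaks to 9.59%. Within 1000 bp of a transcription start site (TSS), by peak centre, STAT3 kept 3 of the 7 genes, and SOX4 and GABPa kept 0. The same shares over all genes were 1.98% for STAT3, 0.764% for SOX4 and 1.54% for GABPa. Since known peaks chose the members, nothing is read from these shares. No factor peak was named to Klf1 or Gata1 at any distance. The lists are filtered, with a fold of at least 10.01 in all 3 and no region more than 5000 bp upstream of its TSS, so a missing peak does not show a gene to be unbound. Open intervals were named to all 7 genes, as to 98.4% of all genes.

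**Figure D1:**
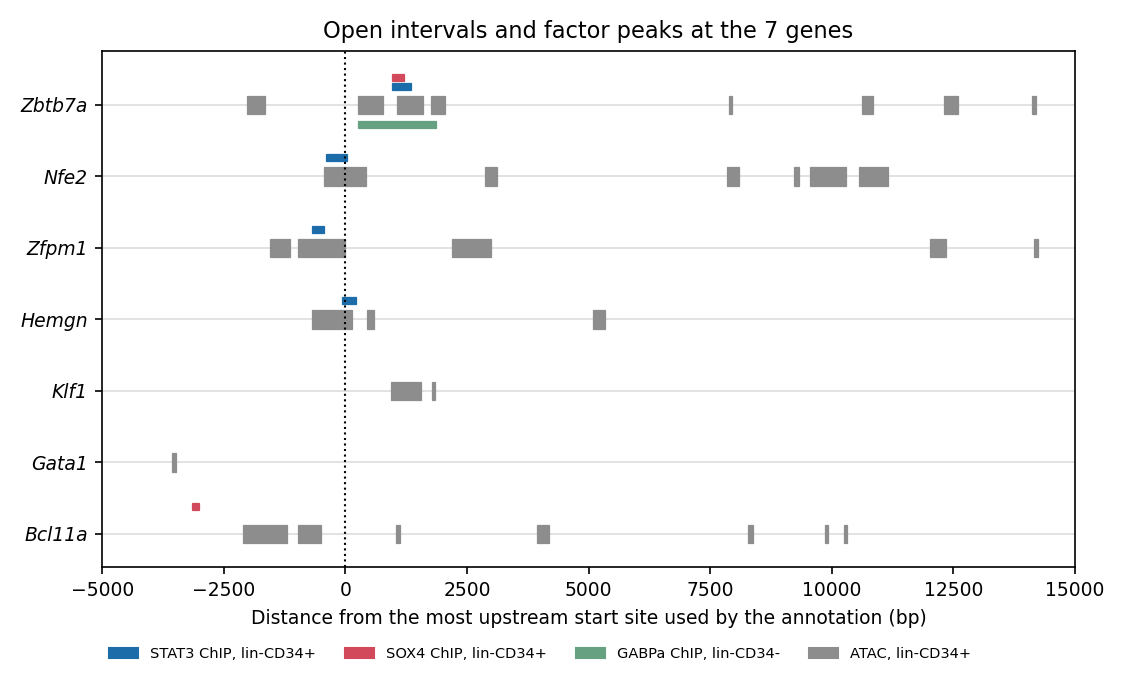
Position of each open interval (grey) and factor peak (coloured) around the most upstream TSS that the annotation used (distance in bp), with bars drawn to their width. STAT3 bars lie over a grey bar at Zbtb7a, Nfe2, Zfpm1 and Hemgn, the SOX4 bar of Bcl11a lies over none, and Klf1 and Gata1 have grey bars alone; more distant intervals of Zfpm1 and Bcl11a are outside the plot.

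Zbtb7a had a peak of each factor on the same stretch of its first intron, in a CpG island by the authors' annotation. The STAT3 peak (chromosome 10, 81137232 to 81137611, mm10) held 51 tags, or reads (95% Poisson interval 38 to 67.1, which covers counting error only), at a fold of 17.75 over the peak caller's background. The SOX4 peak (81137230 to 81137479) held 21 tags (13 to 32.1) at a fold of 11.63. The GABPa peak of lin-CD34- cells (81136520 to 81138139) held 30 tags (20.2 to 42.8) at a fold of 10.61. In each library Zbtb7a was thus high by tags and low by fold. For STAT3, 11.6% of the list had as many tags or more, while 79.3% had as high a fold or higher. For SOX4 those shares were 0.829% and 75.8%, and for GABPa 10.0% and 86.4%. The 3 peaks were also wide: 20.8% of the STAT3, 4.58% of the SOX4 and 14.2% of the GABPa list were as wide or wider. By the deposited score, a p-value on a scale of −10 log10, Zbtb7a ranked 271 of 885 for STAT3 (113.14), 258 of 3016 for SOX4 (88.96) and 1512 of 2525 for GABPa (86.45).

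**Figure D2:**
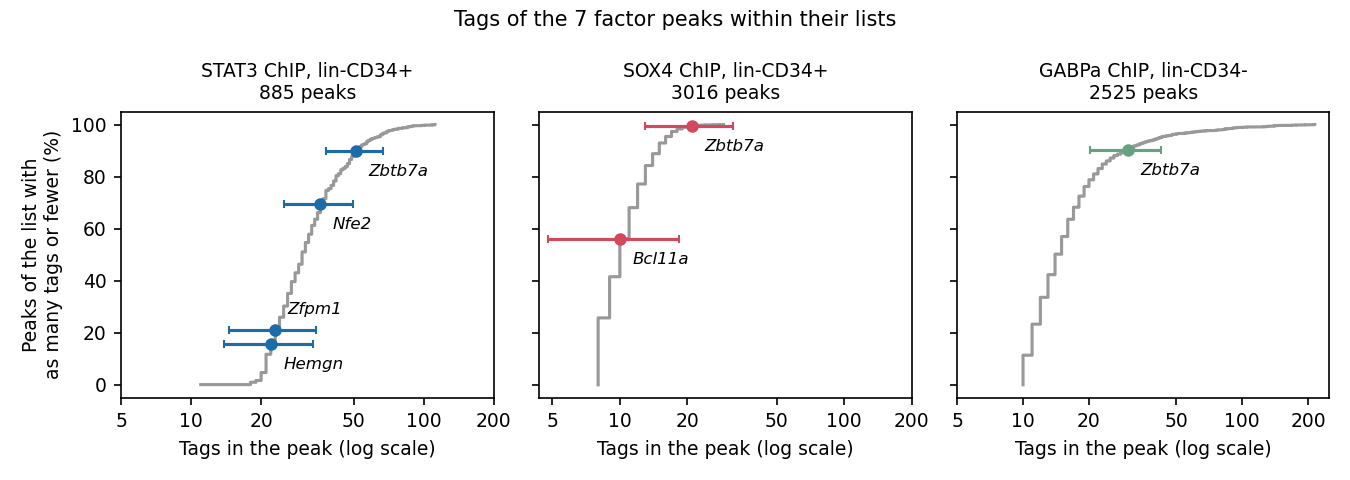
Share of each list's peaks with as many tags or fewer (grey steps, in %) against tags per peak on a log axis, with the members' peaks as points and exact 95% Poisson intervals of their tags as bars. Zbtb7a lies in the upper part of each curve, with 51, 21 and 30 tags, while Zfpm1 (23) and Hemgn (22) lie in the lower part of the STAT3 curve.

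The STAT3 and SOX4 peaks at Zbtb7a began 2 bp apart and shared 248 bp, which is 65.3% of the STAT3 peak and 99.2% of the SOX4 peak. The GABPa peak was 1620 bp wide and covered both of them whole. Among the 58 overlapping pairs of a STAT3 and a SOX4 peak in the series, 7 began within 2 bp of each other and the median gap between starts was 32 bp. The 21 SOX4 tags at Zbtb7a were the most of any such pair, the next having 19, and 4 pairs had 51 or more STAT3 tags. The STAT3 peak lay in open chromatin in 9 of the 58 pairs, of which Zbtb7a was 1, against 78.4% of all 885 STAT3 peaks. It was the only STAT3 peak of the 885 that overlapped peaks of both other factors. By gene name alone, 55 genes had a peak of all 3 factors at any distance and 6 had them within 5000 bp of a TSS. The sources used here do not name the control library behind each list.

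The summits at Zbtb7a did not coincide. Measured from the TSS, and taking the deposited summit as counted from 1 at the peak start, the GABPa summit lay at 754 bp, the STAT3 summit at 1046 bp and the SOX4 summit at 1156 bp. Open chromatin of lin-CD34+ cells was listed there as 3 intervals, from 254 to 777 bp, from 1065 to 1591 bp and from 1752 to 2056 bp, with gaps of 287 and 160 bp. The GABPa summit lay in the first of these and the SOX4 summit in the second. The STAT3 summit lay in the gap, 19 bp before the second interval. Open intervals covered 276 of the 380 bp of the STAT3 peak (72.6%), 144 of the 250 bp of the SOX4 peak (57.6%) and 1168 of the 1620 bp of the GABPa peak (72.1%). A further interval lay upstream, from −2016 to −1656 bp, and 4 lay from 7879 to 14209 bp, in exon 2, the last intron and the 3′ UTR.

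**Figure D3:**
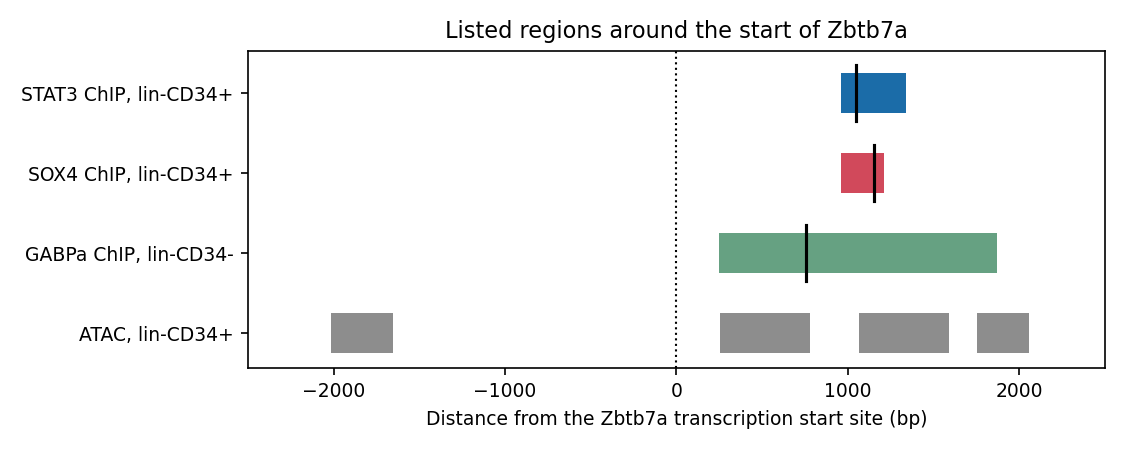
Listed regions around the Zbtb7a TSS (dotted line; distance in bp), a row for each list, with black ticks at the peak summits. The STAT3 and SOX4 bars start 2 bp apart, at 961 and 959 bp, the GABPa bar spans both, and the 3 grey bars downstream of the TSS leave gaps of 287 and 160 bp.

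The promoter window at the Zbtb7a TSS used here was not among the open intervals. It does not reach the start of the RefSeq gene span, which lies further upstream, at 81135225. The RefSeq promoter window (GRCm38.p6, the assembly also called mm10; 250 bases before to 49 after the start base; chr10:81136021-81136320, plus strand) overlapped no region of any list, and the nearest open interval began 204 bp beyond it. It is shown because it holds the GATA core AGATAA in both orientations, in capitals, at −116 to −111 and at −39 to −34 from the start base.
Zbtb7a: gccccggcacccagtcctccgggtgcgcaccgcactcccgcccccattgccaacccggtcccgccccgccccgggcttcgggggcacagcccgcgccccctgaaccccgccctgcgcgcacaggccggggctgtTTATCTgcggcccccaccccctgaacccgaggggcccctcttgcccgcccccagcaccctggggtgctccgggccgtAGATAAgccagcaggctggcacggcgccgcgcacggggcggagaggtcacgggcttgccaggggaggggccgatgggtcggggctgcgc

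The STAT3 peak of Nfe2 lay at the most upstream of its starts. The peak (chromosome 15, 103258366 to 103258803) had its centre at −181 bp of the most upstream of the 3 TSSs used and held 36 tags (25.2 to 49.8) at a fold of 13.86. Its score of 86.3 ranked 519 of 885, below the median of 92.53, and 94.6% of the STAT3 list had as high a fold or higher. All 438 bp of the peak lay inside an open interval of 859 bp (103257986 to 103258844), and the summit was 93 bp upstream of the start. Another open interval, of 244 bp, spanned the middle start (from −100 to 143 bp) and carried no factor peak. The other 4 intervals lay at 1243, 2548, 3196 and 4135 bp from the most downstream start, in an intron, the last exon and at the gene end. Of these, the interval at 3196 bp was 740 bp wide, a width reached by 4.32% of all open intervals. No GABPa or SOX4 peak was named to Nfe2. The nearest factor peak named to another gene was a SOX4 peak of 10 tags in a B1 repeat, 28515 bp away and named to Mir148b.

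Zfpm1 carried its STAT3 peak inside the widest open interval found at any of the 7 genes. The peak (chromosome 8, 122281463 to 122281692) had 23 tags (14.6 to 34.5), a score of 84.12 that ranked 555 of 885, and a fold of 22.12, close to the list median of 22.27. Its summit was at −579 bp from the TSS, and its 230 bp lay wholly in an interval of 973 bp that ran from −982 to −10 bp. An interval as wide or wider was found in 1.82% of the open list. A second wide interval, of 811 bp, lay at 2590 bp in intron 1 without a factor peak. Intron 1 held 5 intervals and intron 3 held 3, of 506 to 705 bp, at 27327 to 36182 bp from the TSS. In addition, 5 intervals inside the RefSeq span of Zfpm1 were named by the authors to Trhr2 and are not in the count of 10. RefSeq also places the noncoding gene Gm39269 over the start of Zfpm1, so position alone does not assign a region there to either gene. The next STAT3 peak lay 38512 bp beyond the end of Zfpm1, at the promoter of Zc3h18, with 42 tags.

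Hemgn had the STAT3 peak with the fewest tags and the lowest score of the 4, and among the 6 members in the RefSeq promoter table, which does not include Nfe2, it was the only one whose window held a STAT3 peak. The peak (chromosome 4, 46403977 to 46404255) held 22 tags (13.8 to 33.3) at a fold of 17.32 and a score of 71.08, rank 871 of 885, with a false discovery rate of 4.31% by the authors' deposited table. Its summit lay at 8 bp from the TSS. An open interval of 822 bp ran from −691 to 130 bp and covered 203 of the 279 bp of the peak (72.8%) and all 300 bp of the promoter window. The other intervals of Hemgn lay at 518 bp in intron 1 and at 5210 bp, in a SINE repeat of intron 2. The neighbouring gene Trmo, a tRNA methyltransferase gene whose STAT3 peak lay 4451 bp past the end of Hemgn, carried both a STAT3 peak of 30 tags and a GABPa peak of 24 tags, in open chromatin. Hemgn had no GABPa peak of its own.

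The promoter windows of Hemgn (chr4:46404134-46404433, minus strand) and Zfpm1 (chr8:122281891-122282190, plus strand) are shown because open chromatin covered them. Bases of Hemgn in capitals lie in the STAT3 peak, and bases of Zfpm1 in capitals lie in the open interval, whose end is 10 bases short of the start base.
Hemgn: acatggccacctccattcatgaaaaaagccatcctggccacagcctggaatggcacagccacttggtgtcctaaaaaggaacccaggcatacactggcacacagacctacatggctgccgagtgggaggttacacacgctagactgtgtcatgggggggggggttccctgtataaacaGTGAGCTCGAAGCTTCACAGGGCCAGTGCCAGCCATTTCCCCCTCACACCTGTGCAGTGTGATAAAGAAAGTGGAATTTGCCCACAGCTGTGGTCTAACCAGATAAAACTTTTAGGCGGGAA
Zfpm1: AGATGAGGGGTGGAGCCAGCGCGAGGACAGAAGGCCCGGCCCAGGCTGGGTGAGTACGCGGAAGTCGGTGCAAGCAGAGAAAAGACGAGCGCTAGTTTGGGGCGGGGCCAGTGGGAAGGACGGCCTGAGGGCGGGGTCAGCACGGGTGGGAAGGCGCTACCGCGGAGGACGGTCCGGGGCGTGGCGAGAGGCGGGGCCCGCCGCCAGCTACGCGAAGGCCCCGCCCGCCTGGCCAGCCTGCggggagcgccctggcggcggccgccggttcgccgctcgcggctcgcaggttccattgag

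The window of Hemgn reaches 122 of the 279 bp of its STAT3 peak. Those bases hold the GATA letters TGATAA at −13 to −8 and AGATAA at 28 to 33 from the start base. They hold no TTCNNNGAA, the palindrome that STAT factors are known to prefer. Zfpm1 held none of the motifs searched in its window, which does not reach its STAT3 peak. Of the 6 members found in the promoter table, AGATAA (or TTATCT on the other strand) was in 2, Hemgn and Zbtb7a, against 8.55% of 14928 promoters of genes in the lists. TGATAA (or TTATCA), which was added outside the planned set of motifs, was in 2, Hemgn and Klf1, against 6.12%. TTCNNNGAA was in 1, Bcl11a, as TTCGACGAA at −224 to −216, against 7.67%. The ETS core CCGGAA (20.7% of all), the SOX core ACAAT (24.8%), the CACCC box CCACACCC (3.85%) and the MARE core TGAGTCA (4.62%), each searched on both strands, were in none of the 6. A match is a run of letters and not a bound site. Only the letters given were searched, so a missing match does not show that looser forms of a site are absent. The STAT3 peaks of Zfpm1 and Zbtb7a lay outside these windows and Nfe2 had no window, so the letters of these peaks were not searched. The rest of the Hemgn peak was not searched either, so whether it holds TTCNNNGAA is not known.

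Klf1 had open chromatin in its body and none listed at its start. An interval of 606 bp (chromosome 8, 84902868 to 84903473) lay from 940 to 1545 bp of the TSS, in exon 2 of 3, and an interval of 73 bp, the narrowest width in the list, lay at 1807 bp in a B1F repeat of intron 2. The start of the RefSeq transcript in the promoter table differs from the TSS of the authors' distances at Klf1, and the gap between the promoter window and the first interval was 836 bp. The window (chr8:84901732-84902031, plus strand) is shown as a red cell promoter with no listed open interval; the capitals mark the letters TTATCA, which read TGATAA on the other strand, at −80 to −75 from the RefSeq start base.
Klf1: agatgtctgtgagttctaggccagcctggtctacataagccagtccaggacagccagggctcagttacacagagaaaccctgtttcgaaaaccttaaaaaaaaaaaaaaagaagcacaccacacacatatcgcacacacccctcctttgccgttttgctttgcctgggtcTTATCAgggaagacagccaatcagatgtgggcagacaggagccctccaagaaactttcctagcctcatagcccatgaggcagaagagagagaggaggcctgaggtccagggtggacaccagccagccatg

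Gata1 had the least listed open chromatin of the 7 genes: a single interval of 81 bp (chromosome X, 7971402 to 7971482) at −3532 bp from the TSS. The open list, like the factor lists, holds no region more than 5000 bp upstream of its TSS, so open chromatin further upstream would not be seen. Of genes in the open list, 17.4% also had 1 interval, and 2.55% had fewer open bases. The promoter window lay 3241 bp from that interval and overlapped none. The interval is inside the RefSeq span of Gata1 (7959260 to 7976663), which extends upstream of the TSS used here, and inside the noncoding gene Gm52419. A blood enhancer is known upstream of the red cell first exon of mouse Gata1 from transgenic mice, and whether the interval belongs to it was not tested. The nearest factor peaks were GABPa peaks of 15 and 10 tags named to Glod5 and Timm17b, 29806 and 51504 bp outside the gene.

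Bcl11a had the most open intervals, 27, and a SOX4 peak that none of them met. The SOX4 peak (chromosome 11, 24074901 to 24075052) lay at −3080 bp from the more upstream of the 2 TSSs used, with 10 tags (4.80 to 18.4), a fold of 12.86 and a score of 56.93, rank 2349 of 3016. It was annotated as intergenic, and the nearest open interval began 894 bp away. That interval, of 906 bp at −1657 bp in a CpG island, and a second of 466 bp at −741 bp were the widest of the gene. The other 25 were at most 317 bp wide, and 19 of the 27 lay in intron 2, from 5691 to 77481 bp of the more downstream TSS. Between 47191 and 59001 bp that intron held 8 intervals with 1338 open bases, a stretch singled out after its values were seen. An intron of BCL11A is known to hold a red cell enhancer in human and mouse, and whether these intervals belong to it was not tested. The RefSeq promoter window of Bcl11a, at its more downstream start, overlapped no open interval. The RefSeq span of the gene begins upstream of both TSSs used, at 24076564, and this position lies inside the interval of 906 bp.

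The order of the 7 genes by open chromatin depended on the measure. Bcl11a (27 intervals), Zfpm1 (10), Zbtb7a (8), Nfe2 (6), Hemgn (3), Klf1 (2) and Gata1 (1) stood against a median of 4 over 20350 genes, with quartiles of 2 and 8. Per 10 kb of RefSeq gene span, counting every interval inside it, the order was Klf1 (6.04), Nfe2 (4.91), Zbtb7a (4.12), Hemgn (2.94), Bcl11a (2.68), Zfpm1 (2.50) and Gata1 (0.575), against a median of 1.79 over 16999 protein-coding genes. Klf1 thus moved to the top of that order on 2 intervals in 3310 bp, and Gata1 stayed last. By open bases the order was Bcl11a (5088 bp), Zfpm1 (4580), Nfe2 (2793), Zbtb7a (2380), Hemgn (1215), Klf1 (679) and Gata1 (81), against a median of 1064 bp over genes in the open list. These counts have no replicate, so neighbours in these orders could not be shown to differ. They also leave out any region more than 5000 bp upstream of its TSS, which the open list does not hold.

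**Figure D4:**
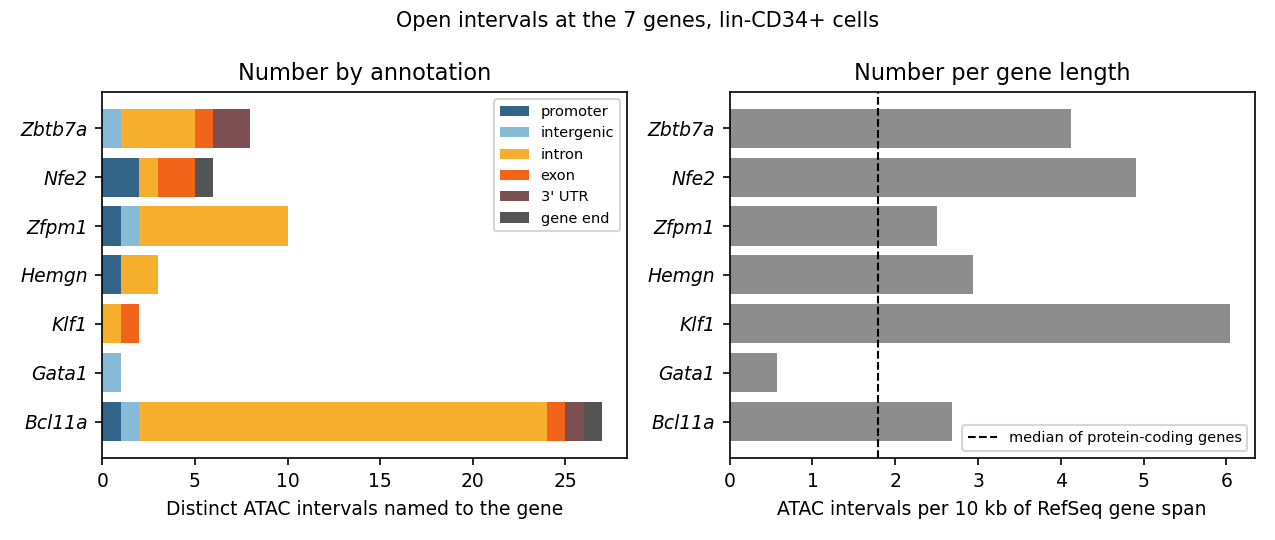
Left, distinct open intervals named to each gene, coloured by annotation; right, open intervals per 10 kb inside the RefSeq span of the gene, with the median of 16999 protein-coding genes (1.79) as a dashed line. Bcl11a has the longest bar on the left (27, mostly intronic), Klf1 the longest on the right (6.04), and Gata1 the shortest on both.

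An open interval centred within 1000 bp of a TSS was named to 5 of the 7 genes (71.4%), all but Klf1 and Gata1, against 68.2% of all genes. The narrower RefSeq promoter window was open at 2 of the 6 members in the table (Hemgn and Zfpm1), against 55.6% of 14928 genes, and held a STAT3 peak at 1 of the 6 (Hemgn), against 2.05%. The members with an interval within 1000 bp and none in the window were Zbtb7a, whose nearest interval begins downstream of it, and Bcl11a, whose window sits at the other start; Nfe2 was not among the 6. The 57 intervals had a median width of 216 bp, against 132 bp in the whole list, and 4 of them were in annotated repeats, against 21.0% of the whole list. Of the 57, 3 stood in the list as 5 or more repeated entries, against 2.79% of all intervals: the promoter intervals of Hemgn and Zfpm1 and the 811 bp interval in intron 1 of Zfpm1. The headers do not say what a repeated entry stands for.

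Of the 7 factor peaks at the members, 6 overlapped an open interval: all 4 STAT3 peaks, the SOX4 peak of Zbtb7a but not that of Bcl11a, and the GABPa peak. Over the whole lists an open interval was met by 78.4% of STAT3 peaks, 5.4% of SOX4 peaks and 16.8% of GABPa peaks. Open intervals with a factor peak numbered 6 of 57 (3 at Zbtb7a and 1 each at Nfe2, Zfpm1 and Hemgn), against 0.896% of all open intervals. The members were chosen with these peaks known, so nothing is read from either count. The share of a STAT3 peak covered by open chromatin was 100% at Nfe2 and Zfpm1, 72.8% at Hemgn and 72.6% at Zbtb7a. Factor peaks named to other genes within 100000 bp of a member numbered 12. They were 7 SOX4 peaks, none of them open, 3 GABPa peaks, of which that at Trmo was open, and 2 STAT3 peaks, at Trmo and Zc3h18, both open. The 3 lists differ in the same order as a whole, as the shares above give. The nearest to Klf1 was a SOX4 peak of 17 tags at Gcdh, 17120 bp away.

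Partners, relatives and red cell genes around these regulators were taken from 6 lists of 85 genes, chosen with earlier results of these data known, of which 80 were named in at least 1 peak list. STAT3 peaks were named to 8 of the 80 (10.0%, against 4.12% of all genes), SOX4 peaks to 7 (8.75%, against 12.5%) and GABPa peaks to 7 (8.75%, against 9.59%). Among 19 partners of the GATA1 complex STAT3 peaks were at Runx1, its partner subunit gene Cbfb, and Lyl1, a bHLH factor related to Tal1. The Runx1 promoter peak had 40 tags, the Cbfb promoter peak 48, and the Lyl1 peak, at 2077 bp in intron 3, 30. A second STAT3 peak of Runx1, at 25077 bp in intron 2, had 35 tags and a fold of 37.11, against 24.48 at its promoter. All of these overlapped open chromatin. A SOX4 peak of 12 tags lay at −4529 bp of the deacetylase gene Hdac1, in a B3 repeat and outside open intervals. Among 11 partners of the globin repressors no STAT3 peak was listed. SOX4 had a peak of 9 tags at −1026 bp of Nr2c1, an orphan nuclear receptor gene, in an LTR repeat and outside open intervals. GABPa peaks were named to 3 of the 11 (27.3%, against 9.59% of all genes), Ncor1, Nr2c2 and Sox6. Those of Ncor1 (16 tags, at 7904 bp) and Nr2c2 (18 tags, at 29014 bp) were outside open intervals. Sox6, which acts with BCL11A on globin genes, had distal intronic peaks of SOX4 (8 tags) and GABPa (15 tags), neither of them open.

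The NF-E2 relatives (8 genes) had a STAT3 peak of 48 tags in intron 1 of Nfe2l2, the gene of the stress factor NRF2, and SOX4 peaks of 8 and 11 tags named to Bach1, a repressor at NF-E2 sites, at 206197 and 224841 bp from its TSS. Their small MAF genes Mafk, Mafg and Maff had no factor peak. Among 13 relatives of GATA, FOG and KLF factors a GABPa peak of 24 tags lay at 4624 bp of Klf4, and a SOX4 peak of 24 tags lay in the 3′ UTR of Gata3. Among 12 other regulators STAT3 peaks were at Smad5 (intron 1, in a CpG island, 27 tags), Foxo3 (6274 bp) and Stat5b (12959 bp). The Smad5 peak overlapped open chromatin, and those of Foxo3 and Stat5b did not. A GABPa promoter peak of 29 tags was at E2f2, a cell cycle factor of red cell precursors. Among 17 structural and receptor genes Tfrc, the transferrin receptor gene, had peaks of all 3 factors. They were apart from each other: the STAT3 peak at −109 bp (44 tags), the GABPa peak at 4852 bp (43 tags) and the SOX4 peak in exon 14 (13 tags).

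Open promoter intervals within 1000 bp of a TSS were listed for 18 of the 19 GATA1 partners, all 11 repressor partners, 7 of 8 NF-E2 relatives, 9 of 13 relatives of GATA and KLF, and all 12 other regulators. The structural and receptor genes had them at 11 of 17 (64.7%). In all it was 68 of 80 (85.0%), against 68.2% of all genes. The set of all genes also holds microRNA genes such as Mir148b, which the 80 do not, so the shares are not of like genes. The globin genes on the list have near-identical copies, so their intervals are uncertain. The treatment of reads with more than 1 match is not stated in the labels or headers.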

How the data were processed

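Per the labels, chromatin of EML cells was studied in 6 libraries: STAT3 and SOX4 ChIP-seq and ATAC-seq in lin-CD34+ cells, GABPa ChIP-seq in lin-CD34- cells, and a control in each population (titled input, with IgG as antibody) that was not analysed here. Build mm10 and the tools MACS2, Picard, SAMtools, HOMER, Bowtie2 and CASAVA 1.7 stand in the submitters' processing notes, with no role or order. Per the file headers, the deposited tag counts are reads in each peak, the deposited score is a p-value on a scale of −10 log10, the deposited fold is a ratio over background, and the false discovery rate is in percent. The deposited ATAC list gives positions without a score, 195295 entries at 143365 positions, and distinct positions were used. The sources used here give neither library totals nor a transposase shift, so the only measure of depth was the tags of each peak (median 30 in the STAT3, 10 in the SOX4 and 14 in the GABPa list).

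The members and gene lists were chosen with earlier results of these data known. Regions were taken by the authors' gene name, any distance. Overlap needed 1 bp. Distances of centres are the authors', to the nearest TSS, and those of edges and summits were computed from the same TSS. Named genes were the 7 members with every factor peak and, from the lists, mainly genes with a factor peak within 5000 bp of a TSS; others were named after their values were seen. Alternatives covered overlap, distance, score, repeated entries, gene span and motif window. Promoters came from RefSeq (GRCm38.p6), which held 6 members. The work used scipy 1.17.1, pandas 2.3.3, numpy 2.4.6 and Python 3.11.15, with matplotlib 3.10.9 for plots. The overlap step was tested on simulated data and matched a plain search for 500 of 500 intervals. No genome sequence was used here.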

Additional observations from a re-analysis of the deposited data

How the results depend on the processing

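The 3 overlaps between factors at Zbtb7a kept their number under every overlap rule tried. With GABPa the 50% rule was met only as a share of the narrower peak. The STAT3 and SOX4 peaks covered 23.5% and 15.4% of the GABPa peak. Since the GABPa peak covers both of them whole, that rule could not fail there, and nothing is read from it. Factor peaks over open intervals numbered 6 with 50% covered or merged intervals, 5 by peak centre, losing the GABPa peak of Zbtb7a, and 3 with 200 bp around every centre, where wide open intervals are cut short. Counting every ATAC entry gave 98 in place of 57 intervals, and counting by RefSeq gene span, added after seeing the data, gave 58. Members with any factor peak numbered 5, and 3 within 1000 bp of a TSS, while only Zbtb7a (1) had peaks above the median score, of STAT3 and SOX4. Of the 80 list genes, 19 had a peak of any factor (23.8%, against 22.6% of all genes), 5 within 1000 bp (6.25%, against 3.92%), 9 within 5000 bp (11.2%, against 9.65%) and 10 above the median score (12.5%, against 12.6%). Shares of all genes within 1000 and 5000 bp were 1.98% and 2.74% for STAT3, 0.764% and 4.06% for SOX4, and 1.54% and 3.61% for GABPa. From 100 bases before the start, TTCNNNGAA was in 0 member promoters and the other motif counts did not change. No paired analysis was possible because each group had 1 library. SOX4 peaks rest on few tags (8 at least), which limits their ranks.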
